A study of Gallus gallus with 10 samples.

Results

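PAX6 and 4 further genes of the lens program, PROX1, PITX3, ASL1 and CRYAA, were followed across the 4 groups of the series. Their probe sets were found by gene symbol in the platform annotation. The genes themselves were picked with earlier results of these data known. Each gene is read by 1 probe set, so that they make up 5 of the 38439 probe sets other than array controls, and 5 of the 13009 genes with a symbol of their own on the array.

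Cells at the border of the neural plate in the early embryo form the pre-placodal region, from which lens, nose and inner ear arise. PAX6 encodes a transcription factor with a paired domain and a homeodomain, and is needed for the lens and for olfactory ectoderm. It is also a gene of the developing central nervous system. In the lens program it acts early, PROX1 encodes a homeobox transcription factor that follows as lens cells form and mature, and crystallins then accumulate in the lens fibers. PITX3 encodes another homeobox transcription factor of the lens program. ASL1 encodes delta-crystallin, the main soluble protein of the young bird lens, which is related to the urea cycle enzyme argininosuccinate lyase. CRYAA encodes alpha-A-crystallin, a small heat shock protein that keeps other lens proteins in solution.

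The tissue was the pre-placodal region of chick embryos at stages HH5-7, dissected by hand into an anterior part (aPPs) and a posterior part (pPPs). RNA was taken either at once (3 arrays of aPPs and 3 of pPPs) or after 5 hr of culture of the explants in rat tail collagen (2 arrays of cultured aPPs and 2 of cultured pPPs). The series was made to find transcripts regulated together with PAX6. Each group is numbered by set in the labels, and sets 1, 2 and 3 are named here by group and set. No genotype, strain, added factor or number of pooled embryos is given for any group in the sources used here, and nothing says that the sets came from separate dissections, so p-values measure the spread between these samples, which may be technical. No array holds tissue left in the embryo for the 5 hr, and culture therefore cannot be told apart from the added age. The explants are bulk tissue, in which fewer cells of a type and less RNA per cell cannot be told apart.

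The values are signals of the MAS5 algorithm, on a linear scale with arbitrary units, after quantile normalization over the 10 arrays. Differences are on the log2 scale of the normalized signal plus 16, so that they understate the change of dim genes, and adjusted p-values come from limma with Benjamini-Hochberg adjustment over 21591 tested probe sets. A difference was called at an adjusted p under 0.05. MAS5 also calls each probe set present, marginal or absent on an array, and these calls were usable on 8 arrays, where 44.7 to 50.2 percent of probe sets were present. On the arrays of cultured aPP set 2 and cultured pPP set 2 the calls were left out: in the deposited call table several columns bear the name of the former and no column bears that of the latter.
Of 5 markers of placode progenitors, EYA2, DLX5 and DLX6 were present on 8 of 8 arrays, DLX3 on 5 and EYA1 on 3. Their summed signal was 3045 to 3513 in aPPs and 1758 to 2678 in pPPs. After culture it was 2966 to 3101 in aPPs and 2475 to 2745 in pPPs. Most of this sum came from DLX5, with means of 2859 in aPPs and 2141 in pPPs. Of 8 neural plate markers, SOX3 and CDH2 were present on 8 of 8 arrays and SOX1 on 7. ZEB2 and HES5 were present on 5, NKX6-2 on 3, and SOX2 and LHX2 on 1 each. The summed signal of 5 blood and endothelium markers lay between 11.2 and 36.4.

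PAX6 was measured on every array and lay lowest in pPPs, higher in aPPs, higher again in cultured pPPs and highest in cultured aPPs. Its probe set was called present on 8 of 8 arrays. Normalized signals in pPPs were 35.8, 16.4 and 27.3 in sets 1, 2 and 3. Those of aPPs were 103.2, 44.1 and 46.2. Each of these groups spans more than a factor of 2 within itself, and set 2 of pPPs was the lowest array of all. In cultured pPPs the signal was 201 in set 1 and 137 in set 2, and in cultured aPPs it was 298 and 432. None of the 4 groups overlaps its neighbour in this order. The highest aPP array and the lowest cultured pPP array lie close, and that pair of groups was not tested. Of all tested probe sets, 6.83 percent had each aPP array above the pPPs, and 20.6 percent each cultured aPP array above the cultured pPPs. The share with cultured pPPs above aPPs, or with the whole order, was not counted.

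**Figure D1:**
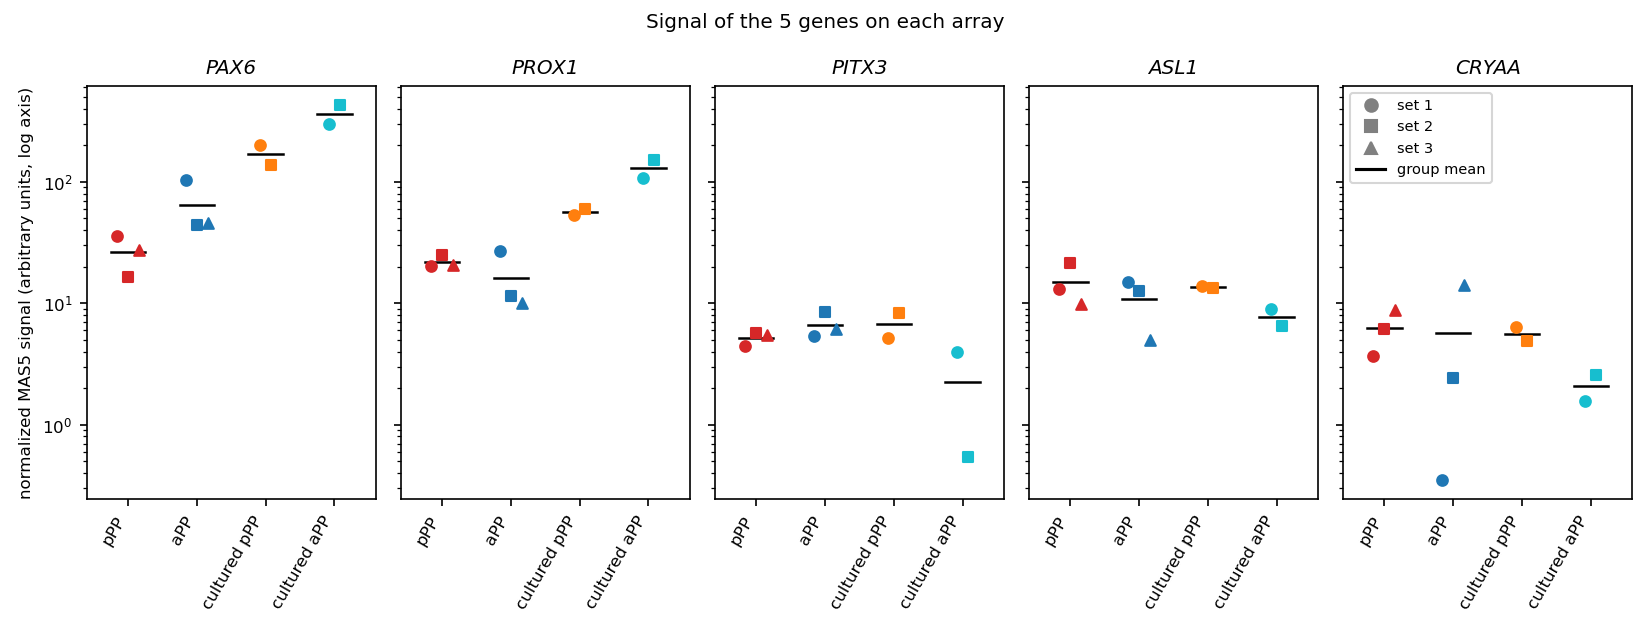
Normalized MAS5 signal (log axis) of PAX6, PROX1, PITX3, ASL1 and CRYAA on each of the 10 arrays, with 1 point per array, 1 column per group and a bar at the group mean. Signals of different probe sets are not comparable with each other. PAX6 climbs from 16.4 to 35.8 in pPPs to 298 and 432 in cultured aPPs, PROX1 is at 53.7 or above on each cultured array, and the other genes stay at or below 21.6.

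Within an array, the PAX6 signal stood at or above that of 58.8 to 69.2 percent of all probe sets in pPPs. This share was 71.5 to 80.1 percent in aPPs, 82.7 to 85.9 percent in cultured pPPs and 89.0 to 91.7 percent in cultured aPPs. Ranks within an array do not depend on the scaling between arrays. Quantile normalization sets the signals by these ranks, so the same order of the 4 groups without overlap is not separate evidence.

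Between the uncultured regions, PAX6 had a log2 difference of 0.87 in aPPs against pPPs (standard error 0.27, 95% confidence interval 0.29 to 1.45, adjusted p = 0.156 from limma) and was not called. The lowest aPP signal exceeded the highest pPP signal, which held for 6.83 percent of tested probe sets. In this comparison 1.18 percent of probe sets were called higher in aPPs. Departures from the group means correlated by 0.439, 0.182 and 0.226 between aPPs and pPPs of sets 1, 2 and 3, although no label says that they are paired. Within these sets the aPP signal was 2.88, 2.69 and 1.69 times that of the pPPs. Blocking on the set number (replicate block) gave an adjusted p of 0.0982. The difference is therefore in 1 direction in each set, but no setting brought it under the threshold.
Markers of other tissues moved with this comparison. For mesendoderm and endoderm the summed signal over 8 genes was 540 to 2177 in aPPs and 274 to 374 in pPPs, and 3 of 6 tested genes were called higher in aPPs (SOX17, HHEX and SST1). GSC and SHH of this list were present on 1 of 8 arrays each. The aPP sums were 1621, 540 and 2177 in sets 1, 2 and 3, whose PAX6 signals are 103.2, 44.1 and 46.2. Of the mesoderm list, 1 of 5 tested genes, FOXC2, was called higher in aPPs (log2 difference 1.93, adjusted p = 0.000361 from limma). Of these 5 genes, 3 had a log2 difference above 0, with a median of 0.04. The summed signal of 7 genes was 1097 to 1308 in aPPs and 213 to 574 in pPPs. Most of that sum came from FOXC2, with means of 1140 in aPPs and 309 in pPPs. Called lower in aPPs were 2 of 7 neural crest markers, TFAP2B and PAX7, and 2 of 6 tested neural plate markers, ZEB2 and NKX6-2. Of all tested probe sets, 1.18 percent were called higher in aPPs and 0.713 percent lower. The part of such cells in the PAX6 difference was not tested.

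After culture PAX6 rose in both regions. In aPPs the log2 difference was 2.30 (standard error 0.31, 95% confidence interval 1.65 to 2.94, adjusted p = 0.000596 from limma), or 4.91-fold with the offset included. The ratio of the mean signals was 5.66. In pPPs it was 2.13 (standard error 0.31, 95% confidence interval 1.48 to 2.77, adjusted p = 0.0012 from limma), or 4.36-fold with the offset included, and the ratio was 6.37. Every cultured array lay above every uncultured array of its region, as did 18.4 percent of tested probe sets in aPPs and 17.2 percent in pPPs. The share of all tested probe sets called higher was 2.1 percent in the aPP comparison and 2.24 percent in the pPP comparison. The response of pPPs minus that of aPPs was -0.17 (95% confidence interval -1.09 to 0.75, adjusted p = 0.965 from limma), an interval that holds differences of either sign. For this difference of responses 0.00926 percent of probe sets were called above 0 and 0.00463 percent below 0. Cultured aPPs remained 1.04 above cultured pPPs on the log2 scale (standard error 0.33, 95% confidence interval 0.33 to 1.75), which was not called (adjusted p = 0.368 from limma). Cultured aPPs lay above cultured pPPs on each array for 20.6 percent of tested probe sets, PAX6 among them. The ratio of these cultured groups was 1.48 in set 1 and 3.16 in set 2.
The call of both increases, but not their direction, depended on a normalization between arrays. On the deposited signals, PAX6 was 199, 37.4 and 28.9 in aPP sets 1, 2 and 3 and 236 and 413 in cultured aPPs, where aPP set 1 comes from the array with the highest median signal of all (21.3, against 6.2 to 15.2 on the others). Without normalization the log2 difference was 2.04 in aPPs and 1.87 in pPPs, with adjusted p-values of 0.132 and 0.338 from limma. Even on these signals each cultured array lay above the uncultured arrays of its region.

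PROX1, whose product drives exit from the cell cycle and fiber elongation in the lens, was dim before culture and clear after it. Its probe set was present on 7 of 8 arrays and marginal on aPP set 3. The signals were 20.4, 24.99 and 20.7 in pPP sets 1, 2 and 3, and 26.9, 11.4 and 9.98 in aPPs. The uncultured groups overlap, with 2 of 3 aPP arrays below all pPPs and the other above them. In cultured pPPs the signals were 53.7 and 59.9, and in cultured aPPs 108 and 151. Each cultured array lay above the uncultured arrays of its region, as did 18.4 percent of tested probe sets in aPPs and 17.2 percent in pPPs. The cultured aPPs lay above the cultured pPPs, as for 20.6 percent of tested probe sets. Its signal stood at or above that of 49.6 to 65.7 percent of probe sets in aPPs and 62.1 to 64.8 percent in pPPs, and of 80.6 to 83.5 percent in cultured aPPs and 73.6 to 74.7 percent in cultured pPPs. Between arrays of the same set number, the ratio of cultured to uncultured signal was 4.04 and 13.2 in aPPs of sets 1 and 2. In pPPs it was 2.63 and 2.40. Nothing shows that these arrays are matched, since their departures from the group means correlated by only -0.106 to 0.0772.

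In aPPs PROX1 rose by 2.21 on the log2 scale (standard error 0.24, 95% confidence interval 1.71 to 2.71, adjusted p = 0.000123 from limma), or 4.62-fold with the offset included, and the ratio of mean signals was 8.07. In pPPs the increase was 0.94 (standard error 0.24, 95% confidence interval 0.44 to 1.44, adjusted p = 0.0367 from limma), a ratio of 2.58. Under the replicate block this was 0.86 and not called (adjusted p = 0.0598 from limma). The call in pPPs was also lost without any 1 pPP array (adjusted p = 0.0819, 0.0735 and 0.0958 without sets 1, 2 and 3), and without cultured pPP set 1 or set 2 (adjusted p = 0.194 and 0.124 from limma).
PROX1 passed in cultured aPPs under every setting except no normalization (adjusted p = 0.0624 from limma). The culture response of pPPs was 1.27 log2 units smaller than that of aPPs (95% confidence interval -1.98 to -0.56 for the response of pPPs minus that of aPPs). After adjustment over all probe sets this difference was not called (adjusted p = 0.32 from limma), nor was that between the cultured groups, of 0.99 (95% confidence interval 0.44 to 1.54, adjusted p = 0.192 from limma). The latter passed under 1 of 22 alternatives, an offset of 64 (0.67, adjusted p = 0.0499 from limma). Before culture the log2 difference between aPPs and pPPs was -0.28 (95% confidence interval -0.73 to 0.17, adjusted p = 0.801 from limma).

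**Figure D2:**
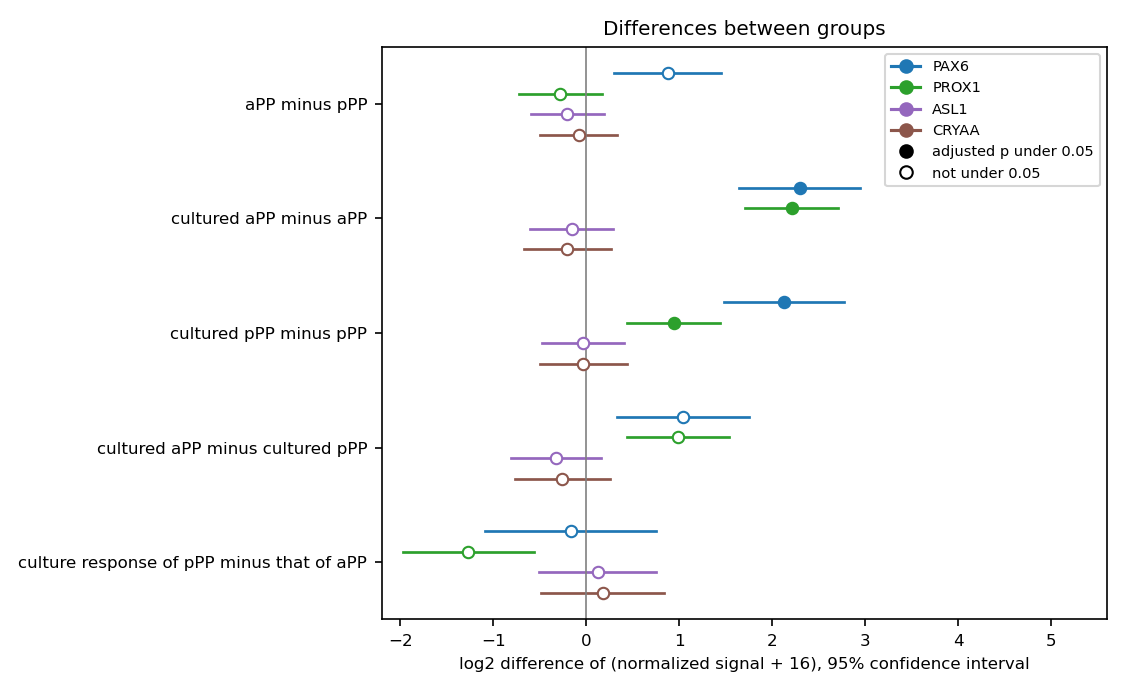
Log2 difference of the normalized signal plus 16 between groups for PAX6, PROX1, ASL1 and CRYAA, with lines for the 95% confidence interval. Filled points passed an adjusted p under 0.05, which are PAX6 and PROX1 in both culture comparisons, at 2.30 and 2.21 in aPPs and 2.13 and 0.94 in pPPs. PITX3 was not tested and is not drawn.

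Markers of other tissues moved with culture as well. The summed signal of 7 neural crest markers was 173 to 203 in aPPs and 431 to 439 in cultured aPPs, and 283 to 362 in pPPs and 847 to 1203 in cultured pPPs. Of the 7, TFAP2B and MSX1 were called higher in both cultured groups, and SNAI2 in cultured pPPs. The log2 difference was above 0 for 5 of 7 in cultured aPPs and 7 of 7 in cultured pPPs. FOXD3 had -0.48 and 0.07 in cultured aPPs and cultured pPPs, and SOX10 -0.08 and 0.08, none of them called. Means of TFAP2B were 6.8 in aPPs, 73.8 in cultured aPPs, 38.9 in pPPs and 491 in cultured pPPs. Those of MSX1 were 94.3, 232, 145 and 275 in the same order. Of all tested probe sets, 2.1 percent were called higher in cultured aPPs and 2.24 percent in cultured pPPs. The sum of 7 mesoderm markers was 1097 to 1308 in aPPs and 1770 to 2134 in cultured aPPs, and 213 to 574 in pPPs and 873 to 1211 in cultured pPPs. Most of that sum came from FOXC2, with means of 1140 in aPPs, 1808 in cultured aPPs, 309 in pPPs and 891 in cultured pPPs. Of 5 tested genes of the mesoderm list, FOXC2 was called higher in cultured pPPs, while TBX6 and TCF21 had no present call. The sum of 8 neural plate markers was 475 to 651 on the cultured arrays and 709 to 1185 on the uncultured arrays. Most of it came from CDH2 and SOX3, whose mean signals were 555 and 307 in aPPs and 268 and 195 in cultured aPPs. None of 6 tested genes of that list was called lower in culture. This is near the share of all tested probe sets, 1.61 percent in aPPs and 1.7 percent in pPPs. HES5 of that list, a target of Notch signaling, was called higher in cultured aPPs (means of 4.96 before and 27.7 after, log2 difference 1.03, adjusted p = 0.0216 from limma). SOX1, SOX2 and SOX3 of that list are also read as lens regulators. For mesendoderm and endoderm the sum of 8 markers was 540 to 2177 in aPPs and 499 to 649 in cultured aPPs. In pPPs it was 274 to 374 and in cultured pPPs 238 to 292. None of 6 tested genes of these tissues was called in culture. In cultured aPPs their median log2 difference was -0.93, and 4 were lower at an unadjusted p under 0.05 in limma. That p was reached in either direction by 3600 of 21591 tested probe sets. The part of such cells in the increase of PAX6 and PROX1 was not tested.

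PITX3, a homeobox gene active in the lens and in dopamine neurons, was not detected. The description of its probe set places it on the reverse strand of chromosome 6 of assembly WASHUC1. It had no present call on 8 arrays and was therefore not tested. Its signal lay between 4.47 and 8.47 on the uncultured arrays and between 0.54 and 8.37 on the cultured arrays, so that culture brought no array above the uncultured range. When probe sets with few present calls were tested too, the adjusted p-values of the 5 comparisons were 0.406 to 0.957 from limma.

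The crystallin probe sets of ASL1 and CRYAA stayed near the lower limit of detection. ASL1 was present on 3 of 8 arrays and marginal on 1. Its signals were 14.9, 12.7 and 4.95 in aPP sets 1, 2 and 3 and 13.2, 21.6 and 9.93 in pPPs, and those of cultured aPPs were 9.03 and 6.46. Cultured pPPs had 13.9 and 13.4. All these values lie within the range of the uncultured arrays.
The log2 difference of ASL1 in culture was -0.16 in aPPs (95% confidence interval -0.60 to 0.28, adjusted p = 0.764 from limma) and -0.04 in pPPs (95% confidence interval -0.48 to 0.40, adjusted p = 0.943 from limma). On this scale the intervals leave out increases of the size measured for PAX6. In RefSeq's annotation of GRCg7b, ASL1 lies beside ASL, which encodes delta-2-crystallin, and these near-identical genes may share signal on the array. The probe set of ASL was present on 4 of 8 arrays, with log2 differences of -0.36 and -0.34 in cultured aPPs and cultured pPPs (adjusted p = 0.403 and 0.424 from limma).

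CRYAA is placed by its description on the forward strand of chromosome 1 of WASHUC1. It was present on 2 of 8 arrays, aPP set 3 and cultured pPP set 1. The signals were 0.35, 2.41 and 14.2 in aPP sets 1, 2 and 3, and 3.66, 6.11 and 8.85 in pPPs. The cultured aPPs had 1.57 and 2.59, and the cultured pPPs 6.33 and 4.91. The highest value was therefore that of an uncultured aPP array. The log2 differences in culture were -0.21 in aPPs (95% confidence interval -0.67 to 0.26, adjusted p = 0.699 from limma) and -0.03 in pPPs (95% confidence interval -0.50 to 0.43, adjusted p = 0.957 from limma).

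The other genes of the lens program were read from a list of 15 regulators and a list of 20 structural genes. None of the regulators tested was called higher in either culture comparison. Of the 15, 13 have a probe set, FOXE3 and HSF4 among them without a present call, and 10 were tested. In cultured aPPs 0 of 10 were called and the median log2 difference was -0.28, where that of all tested probe sets was -0.0013. At an unadjusted p under 0.05, 0 were higher and 3 lower in limma. These counts read the main probe set of each gene, the one with the highest mean signal. They miss any gene present in just 1 cultured group, since calls were usable on 1 array of each. In cultured pPPs 2 of 10 were called lower, with a median of -0.40 against -0.0099 for all tested probe sets, and none of the 10 had a difference above 0. Of all probe sets tested, 1.61 percent were called lower in cultured aPPs and 1.7 percent in cultured pPPs. The shares called higher were 2.1 and 2.24 percent, so that 0 of 10 called higher is near the background.

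The genes called lower were SIX3 and OTX2, homeobox genes of the anterior head ectoderm and forebrain. SIX3 had signals of 216, 195 and 152 in pPP sets 1, 2 and 3 and 40.5 and 30.1 in cultured pPPs. In aPPs it had 233, 100.8 and 119, and 127 and 187 after culture. SIX3 thus had a log2 difference of -1.98 in cultured pPPs (adjusted p = 0.00123 from limma) and of 0.11 in cultured aPPs (adjusted p = 0.897 from limma).
The difference of these responses was -2.09 and was not called (adjusted p = 0.107 from limma). SIX3 was higher in cultured aPPs than in cultured pPPs by 1.74 (adjusted p = 0.0313 from limma), where 0.102 percent of all probe sets were called higher. Leaving out any 1 of the 4 cultured arrays ended that call, with adjusted p-values of 0.118 and 0.566 without cultured aPP sets 1 and 2 and 0.224 and 0.0827 without cultured pPP sets 1 and 2.

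OTX2 is read by 2 probe sets that were both present on 8 of 8 arrays. The brighter one fell by 1.06 in cultured pPPs (adjusted p = 0.00209 from limma) and had -0.35 in cultured aPPs (adjusted p = 0.308). The other fell by 1.56 in cultured pPPs (adjusted p = 0.000248) and by 0.95 in cultured aPPs (adjusted p = 0.00875), and the latter call was lost without cultured aPP set 1 or set 2 (adjusted p = 0.18 and 0.0597 from limma). MAFA, known in chick as L-Maf and an activator of delta-crystallin, was present on 8 of 8 arrays. Its signals were 46.5, 45.6 and 65.7 in aPP sets 1, 2 and 3 and 16.4 and 33.2 in cultured aPPs. The log2 difference of -0.77 was not called (adjusted p = 0.0964 from limma). SOX3, an early neural and placodal gene of the SOX family, had -0.83 in cultured pPPs (adjusted p = 0.0515 from limma).

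**Figure D3:**
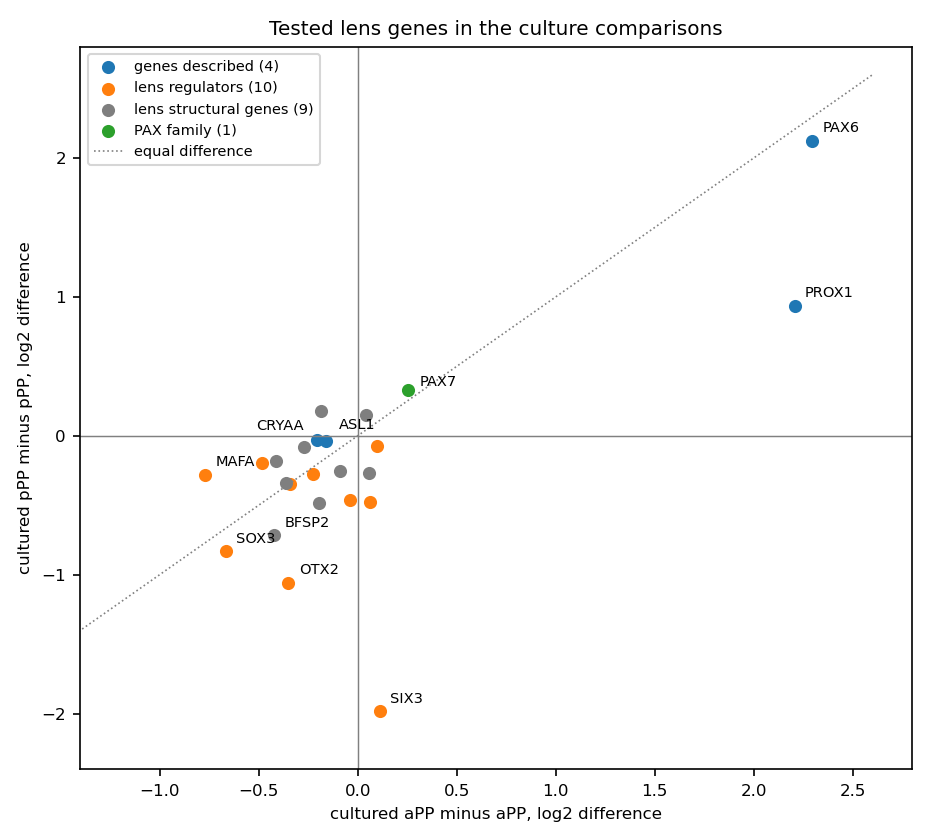
Log2 difference in culture of aPPs (horizontal axis) and of pPPs (vertical axis) for 4 tested genes among PAX6, PROX1, ASL1 and CRYAA, 10 lens regulators and 9 lens structural genes, 1 point per gene from its main probe set, with PAX7 as a further point and a dotted line at equal differences. The axes share no arrays. PAX6 lies at 2.30 and 2.13 and PROX1 at 2.21 and 0.94, while no regulator lies above 0.11 on either axis and SIX3 lies at 0.11 and -1.98.

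Of the 20 structural genes, which hold crystallins, filament and channel proteins of lens fibers and other genes known for a role in the lens, such as TDRD7 and CRIM1, 18 have a probe set. For 6 of these no probe set had a present call, and 9 were tested. None was called in any of the 5 comparisons by limma. The shares of all tested probe sets called in culture are small too (2.1 percent higher and 1.61 percent lower in aPPs, 2.24 and 1.7 percent in pPPs), so that a count of 0 of 9 is near the background. On the main probe sets, at an unadjusted p under 0.05, 0 were called in cultured aPPs and 1 was lower in cultured pPPs, and in aPPs 2 were below pPPs. The log2 differences of the main probe sets lay between -0.42 and 0.06 in cultured aPPs and between -0.72 and 0.18 in cultured pPPs. BFSP2, which encodes the fiber protein phakinin, had the lowest of both, -0.42 and -0.72 (adjusted p = 0.534 and 0.223 from limma). A dimmer probe set of CRYBA4, a beta-crystallin gene, lay outside these ranges, with 0.93 in cultured pPPs (unadjusted p = 0.00511, adjusted p = 0.0874 from limma) and -0.48 in cultured aPPs (adjusted p = 0.424). Its signals were 15.7, 24.3 and 0.62 in pPP sets 1, 2 and 3 and 40.7 and 33.0 in cultured pPPs. The main CRYBA4 probe set had 0.15 in cultured pPPs and another tested one -0.29 (adjusted p = 0.852 and 0.432 from limma), so that the probe sets of this gene differ.

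PAX7 was the gene of the PAX family, besides PAX6, that was tested on its main probe set and called. It encodes a paired-box factor of the dorsal neural tube and neural crest. Its signals were 0.65, 0.65 and 1.72 in aPP sets 1, 2 and 3 and 19.2, 21.4 and 25.2 in pPPs. Cultured aPPs had 4.41 and 4.09 and cultured pPPs 32.1 and 30.8. It thus had the opposite order of regions to PAX6, and was called lower in aPPs (adjusted p = 0.000377 from limma), where 0.713 percent of probe sets were, and lower in cultured aPPs than in cultured pPPs (adjusted p = 0.00741), where 0.13 percent were. The latter call was lost without cultured aPP set 1 or set 2 or without cultured pPP set 1 (adjusted p = 0.108, 0.172 and 0.138 from limma). No fold is given, since PAX7 had no present call in aPPs. On the array labelled cultured pPP set 2, for which no call column was found, PAX7 lay beside cultured pPP set 1 and not beside the aPPs.

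Over the 10 arrays, PROX1 had a Pearson correlation of 0.892 with PAX6 and ranked 120 of 9727 named genes. That of ASL1 was -0.393 and that of CRYAA -0.438. The 10 genes most like PAX6 were S100A6, ANXA8L1, CAV1, STX7, ZYX, ANXA2, ADAMTS18, MSANTD4, PPP3CA and PHLDA2, with correlations from 0.974 down to 0.954. These points share 4 groups, so that the correlations carry the difference between cultured and uncultured arrays and are descriptions only.
S100A6 encodes a calcium-binding protein, ANXA8L1 and ANXA2 encode annexins that bind membranes with calcium, CAV1 encodes the coat protein of caveolae and ZYX a protein of focal adhesions. Mean signals of S100A6 were 94.6 in pPPs, 149 in aPPs, 356 in cultured pPPs and 678 in cultured aPPs. Those of CAV1 were 21.9, 68.4, 206 and 434 in the same order. Of the 10 genes, 7 were called higher in cultured aPPs and 7 in cultured pPPs, where 2.1 and 2.24 percent of all tested probe sets were. In aPPs against pPPs 0 were called higher, where 1.18 percent of probe sets were. The lowest adjusted p among the genes named in that comparison was that of CAV1 (0.0557 from limma). Since likeness to PAX6, itself called in both culture comparisons, chose the 10 genes on these arrays, their counts are a description and no result against these shares.

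**Figure D4:**
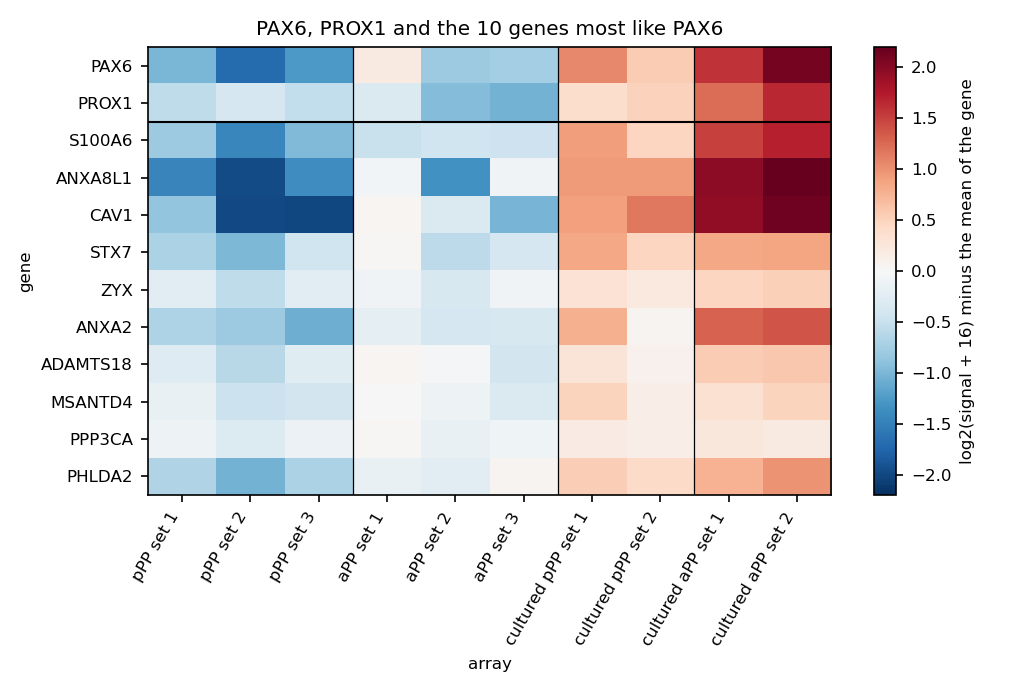
Heat map of PAX6, PROX1 and the 10 genes with the highest correlation to PAX6 (rows) on the 10 arrays (columns, ordered by group), where color gives the log2 of the normalized signal plus 16 minus the gene's mean over the arrays, blue below and red above it. The 10 genes are blue in pPPs and red in cultured aPPs, with correlations to PAX6 of 0.954 to 0.974 for the 10 genes and 0.892 for PROX1.

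Over the 22 alternative settings the increase of PAX6 in culture lay between 1.75 and 2.59 in aPPs and between 1.36 and 2.67 in pPPs, and 21 of 22 passed in each region. That of PROX1 passed under 21 of 22 in aPPs and 11 of 22 in pPPs.

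**Figure D5:**
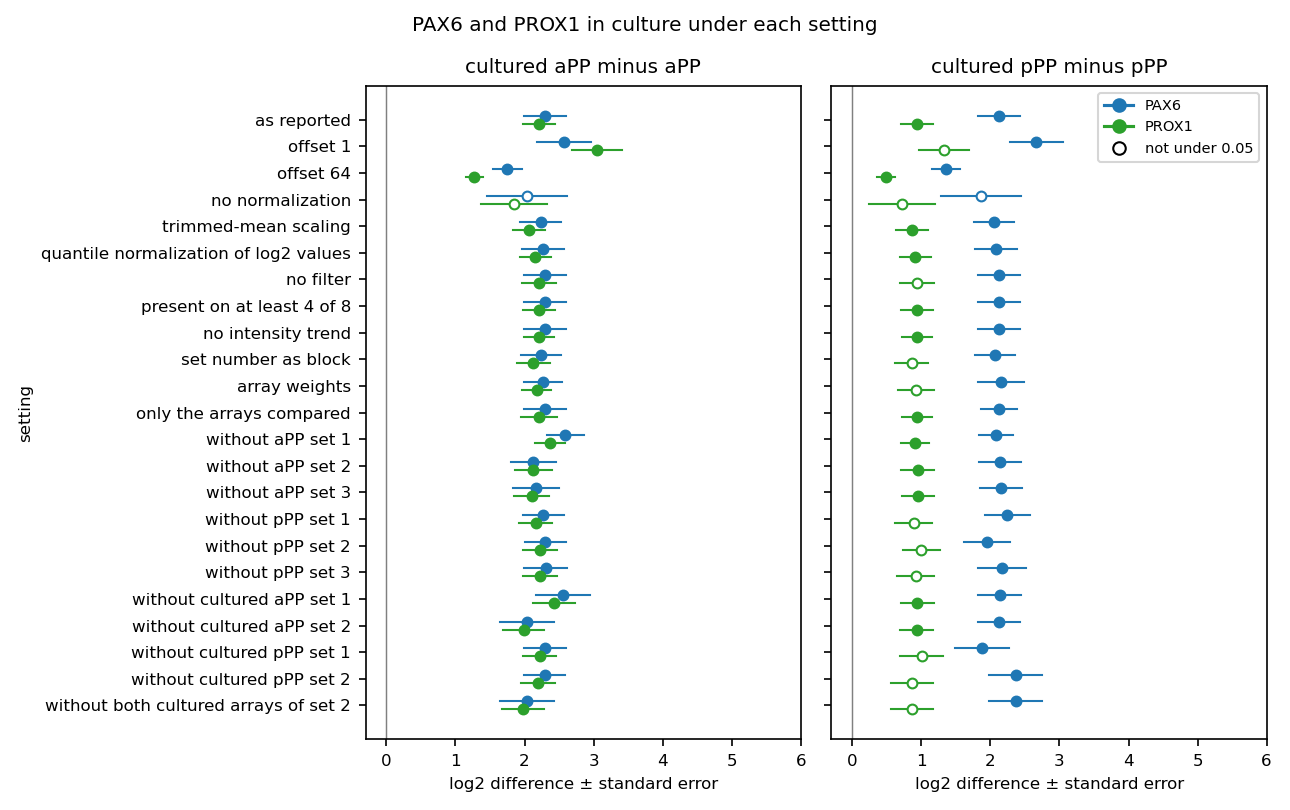
Log2 difference in culture of PAX6 and PROX1 in aPPs (left) and pPPs (right), as reported and under each of 22 alternative settings, with lines for 1 standard error. Filled points had an adjusted p under 0.05. PAX6 is filled under 21 of 22 settings on each side and PROX1 under 21 on the left and 11 on the right, while every point lies above 0.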

How the data were processed

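The series holds 10 Affymetrix chicken arrays. RNA was isolated with Absolutely RNA (Stratagene) and amplified and biotin-labelled with NuGEN Ovation V2. The authors deposited MAS5 signals (intensity, linear scale) and detection calls (present, marginal, absent). No source used here names the MAS5 version. The deposited intensity values were not scaled between arrays (medians 6.2 to 21.3). A second deposited table repeats them: 6 of 6 compared columns were equal within 1e-06. In it 6 columns were not used (the signals and calls of 2 columns with a shared name, and the signals of 2 without a set number), and the column of cultured aPP set 1 is named a re-scan.

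After removal of 96 control probe sets, signals were quantile normalized, 16 was added and log2 taken. The 21591 probe sets present on at least 2 of 8 arrays were fitted in R 4.3.3 with limma 3.58.1, as 4 group means on 10 arrays with an intensity trend. Only 1 array of cultured aPPs and 1 of cultured pPPs had usable calls. A probe set present in just 1 cultured group therefore could not pass this filter. A group of 2 arrays is taken to vary like the others. Figures were drawn with matplotlib 3.10.9. The procedure was tested on simulated data. The members and lists were chosen with earlier results of these data known, and so was the normalization. Named genes are the probe sets of the 5 members, 3 fixed lists (lens regulators, lens structural genes, PAX family) of which called or strongly changed members are named, and the 10 genes most correlated with PAX6. MAFA, SOX3, BFSP2 and ASL were named after their values were seen. Where a gene has several probe sets, that with the highest mean signal was its main one. ASL2 and ASL are 1 gene in RefSeq. The labels do not say that aPPs and pPPs of a set are paired, and the main fit leaves the set number out. Their departures from the group means correlated by 0.439, 0.182 and 0.226 in sets 1, 2 and 3, which may be technical. The departures of cultured and uncultured arrays of a set correlated by -0.106 to 0.0772. Alternatives were other offsets (1 and 64), other or no normalization, other filters, no trend, the set number as a block, array weights, only the arrays compared and each array left out. Leaving out both cultured arrays of set 2 was added after seeing the data. The number of arrays limits the precision.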

Additional observations from a re-analysis of the deposited data

Results flagged for a closer look

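A second probe set of MAF, a basic leucine zipper gene of the lens, was present on 1 of 8 arrays and was therefore outside the tests. Its signal was higher on each cultured array, of which the lowest had 13.89 (cultured pPP set 2), than on the uncultured arrays of the same region. The signals were 5.10, 8.36 and 17.7 in aPP sets 1, 2 and 3 and 39.7 and 45.0 in cultured aPPs, and 1.02, 4.63 and 6.2 in pPPs and 21.97 and 13.9 in cultured pPPs. The main MAF probe set, present on 8 of 8 arrays, had log2 differences of 0.06 and -0.48 in cultured aPPs and cultured pPPs (adjusted p = 0.925 and 0.247 from limma), so that the probe sets of this gene disagree.

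A probe set of the beta-crystallin gene CRYBA4 had no present call on 8 arrays, and its signal on the cultured arrays, with 6.6 as the lowest, lay above all uncultured arrays. The signals were 1.39, 1.29 and 1.57 in aPPs, 0.96, 5.61 and 5.83 in pPPs, 6.60 and 8.19 in cultured aPPs and 12.3 and 7.02 in cultured pPPs. The main CRYBA4 probe set had log2 differences of 0.04 and 0.15 in cultured aPPs and cultured pPPs and was not called. A further tested one had -0.48 and 0.93 (adjusted p = 0.424 and 0.0874 from limma), and another had 0.11 and -0.29 (adjusted p = 0.827 and 0.432). The MAF and CRYBA4 probe sets described first were not tested, and the signals of the latter, 0.96 to 12.3, lie near the lower limit of detection. Among tested probe sets, 18.4 percent in aPPs and 17.2 percent in pPPs had each cultured array above the uncultured arrays of the region. That share was not counted for probe sets outside the tests.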

How the results depend on the processing

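The increase of PAX6 in culture kept its direction under 22 of 22 alternatives, and was lost as a call with no normalization, at 2.04 in aPPs (adjusted p = 0.132 from limma) and 1.87 in pPPs (adjusted p = 0.338). Its difference between aPPs and pPPs passed under 0 of 22 (0.48 to 1.2, adjusted p = 0.0982 to 1). The difference between culture responses of PAX6, -0.17, changed sign with an offset of 1 (0.10) and without both cultured arrays of set 2 (0.33), and lay between -0.50 and 0.086 when 1 array was left out. The reversals below concern values near 0 that were not called. CRYAA in cultured pPPs was 0.14 under the replicate block, which takes the set number as a term, and 0.017 without both cultured arrays of set 2. Leaving out 1 array gave CRYAA -0.11 to 0.052 in cultured pPPs, -0.35 to 0.061 in cultured aPPs, -0.36 to 0.088 in aPPs against pPPs and -0.10 to 0.32 for the difference of responses, and ASL1 -0.16 to 0.11 in cultured pPPs.

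Counts of called probe sets moved more. In aPPs against pPPs (408) they were 58 with no normalization, 251 with no filter and 180 to 427 with 1 array left out. In cultured aPPs (801) they were 34, 508 and 149 to 860, with 1614 under array weights and 131 without both cultured arrays of set 2. In cultured pPPs (849) they were 18, 516 and 164 to 980. Between the cultured groups (50) they were 0 (178 at an unadjusted p under 0.05), 28 and 8 to 137, with 31 at an offset of 1, 31 with no intensity trend, 83 with the replicate block, 80 with array weights, 84 with only the arrays compared and 9 without both cultured arrays of set 2. For the difference of responses (3) they were 0 (150 unadjusted), 1 and 1 to 54, with 1 and 10 at offsets of 1 and 64, 15 with the replicate block, 7 with array weights and 0 (1605 unadjusted) without both cultured arrays of set 2. No filter adds probe sets to the adjustment, and leaving out arrays removes samples. The cause of the other shifts was not tested. With no normalization the median of all tested probe sets moved to -0.194 in cultured aPPs and -0.196 in cultured pPPs. The replicate block changed the call of PROX1 in cultured pPPs and no other call of PAX6, PROX1, ASL1 or CRYAA. Signals near those of ASL1, CRYAA and PITX3 limit what can be read, since absent calls there leave small differences undetectable.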
